A study of Brassica napus with 36 samples.

Results

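The VERNALIZATION INSENSITIVE 3 (VIN3) family of rapeseed, Brassica napus, was followed in leaf RNA of 36 sequencing libraries. Its members were the genes whose Swiss-Prot match in the deposited annotation named the protein VERNALIZATION INSENSITIVE 3 or a VIN3-like protein, and no measured value entered that choice. The rule found 16 of the 106340 listed genes, of which 4 matched VIN3, 3 matched VIL1 (VIN3-like protein 1) and 9 matched VIL2 (VIN3-like protein 2), each time the Arabidopsis protein.

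In Arabidopsis, VIN3 is a plant homeodomain (PHD) finger protein whose gene is off in warm-grown plants and is switched on slowly by cold. VIN3 and the related PHD proteins VIL1 and VIL2 join Polycomb Repressive Complex 2, which places a repressive histone mark on the floral repressor gene FLC and so helps plants to become competent to flower after winter (vernalization). VIL1 and VIL2 are transcribed without cold in Arabidopsis, and VIN3 is the member whose transcription follows cold.

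Seedlings of the early-maturing varieties HX58 and HX17 were compared, with 3 libraries for each variety and condition. In CA and FA, plants grown for 4 weeks at 20/16° with 14 h of light were held for 14 days at 4° (cold acclimation) and then for 12 h at 4° (CA, chilling) or at -4° (FA, freezing). In CB and FB, plants grown for 6 weeks at 20/16° had the same 12 h at 4° (CB) or -4° (FB) with no acclimation. The controls MA (for CA and FA) and MB (for CB and FB) had 6 weeks at 20/16° and 12 h more at 20°, so CA and FA share 1 control group and CB and FB share the other. Groups are written as variety and condition, for example HX58_CB, and all tissue was leaf of whole seedlings, so that fewer cells of a type and less RNA per cell cannot be told apart.

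Read counts per gene summed to between 32214015 and 59290772 per library, and 52780 to 67037 genes had counts. The summed level of 27 loci for photosynthetic leaf genes was 31086 to 142350 FPKM (fragments per kilobase, scaled to the library total), whereas 15 loci for the meristem regulators WUS, STM, CLV3 and KNAT1 summed to 0 to 1.28 FPKM. Single VIN3 loci fell in that range in some libraries and exceeded it in others, with maxima of 2.55 to 4.75 FPKM. WUS was at 0 in 36 of 36 libraries, STM in 35, CLV3 in 27 and KNAT1 in 21, and the highest sums were 1.28 FPKM in a HX17_CA library and 1.13 FPKM in a HX17_MA library. As a check of the treatments, the cold-regulated chloroplast protein genes COR15A and COR15B had 5 tested loci, all of which were called higher in every cold or freezing group than in its control except for HX58_FA, where 4 of 5 were. The libraries of a group are named as replicates, but the study's wording on biological and technical replicates is not uniform, so p-values measure the spread between these libraries. A call required at least a 2-fold difference and an adjusted p under 0.005 in edgeR's quasi-likelihood test, with Benjamini-Hochberg adjustment over all tested genes, and every adjusted p below comes from that test unless DESeq2 is named. A value of log2 fold change is given with a standard error (SE) worked back from that test. The SE is the absolute log2 fold change divided by the square root of the test's F statistic. It is a rough guide where a group had few counts.

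The 4 VIN3 loci lay 1 each on 4 chromosomes, in 2 pairs of corresponding A and C chromosomes. BnaA02g08140D was at 3862183 to 3864694 on A02, BnaC02g11530D at 6854103 to 6856576 on C02, BnaA03g10310D at 4638582 to 4640975 on A03 and BnaC03g12980D at 6232590 to 6234927 on C03, all on the plus strand of the Genoscope genome used by the authors, for which the sources used here name no version. No other listed gene overlapped any of the 16 loci. The A and C copies are close in sequence, and reads that fit more than 1 copy may have been split between copies or left uncounted, so the levels of single copies are uncertain. Averaged over the 36 libraries, VIN3 was the scarce part of the family, with 1.40 FPKM for BnaA02g08140D and 0.409 to 0.569 FPKM for the other 3 VIN3 loci. VIL1 was intermediate, with 1.87 FPKM for BnaA07g05650D and 1.77 FPKM for BnaC07g07230D. VIL2 was the abundant member, with 7 loci between 3.86 and 7.73 FPKM and BnaC07g42420D the highest.

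VIN3 RNA was close to absent in HX17 leaves kept at 20/16° and appeared after cold, with the exception of plants frozen after acclimation. The summed level of the 4 loci was 6.25, 4.20 and 7.33 FPKM in the HX17_CA libraries, 0.319, 0.271 and 0.169 FPKM in HX17_FA, and 0.120, 0.263 and 0 FPKM in the HX17_MA control. Without acclimation it was 2.66, 4.37 and 2.11 FPKM in HX17_CB and 2.81, 3.62 and 3.65 FPKM in HX17_FB, against 0.144, 0.146 and 0.0527 FPKM in HX17_MB. Every HX17_CA, HX17_CB and HX17_FB library was thus above every control library, whereas the HX17_FA libraries overlapped theirs. Wherever a VIN3 locus was near 0 in 1 of the groups compared, it passed the filter on low counts only through the other group, and so had to differ if it was tested at all.

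**Figure D1:**
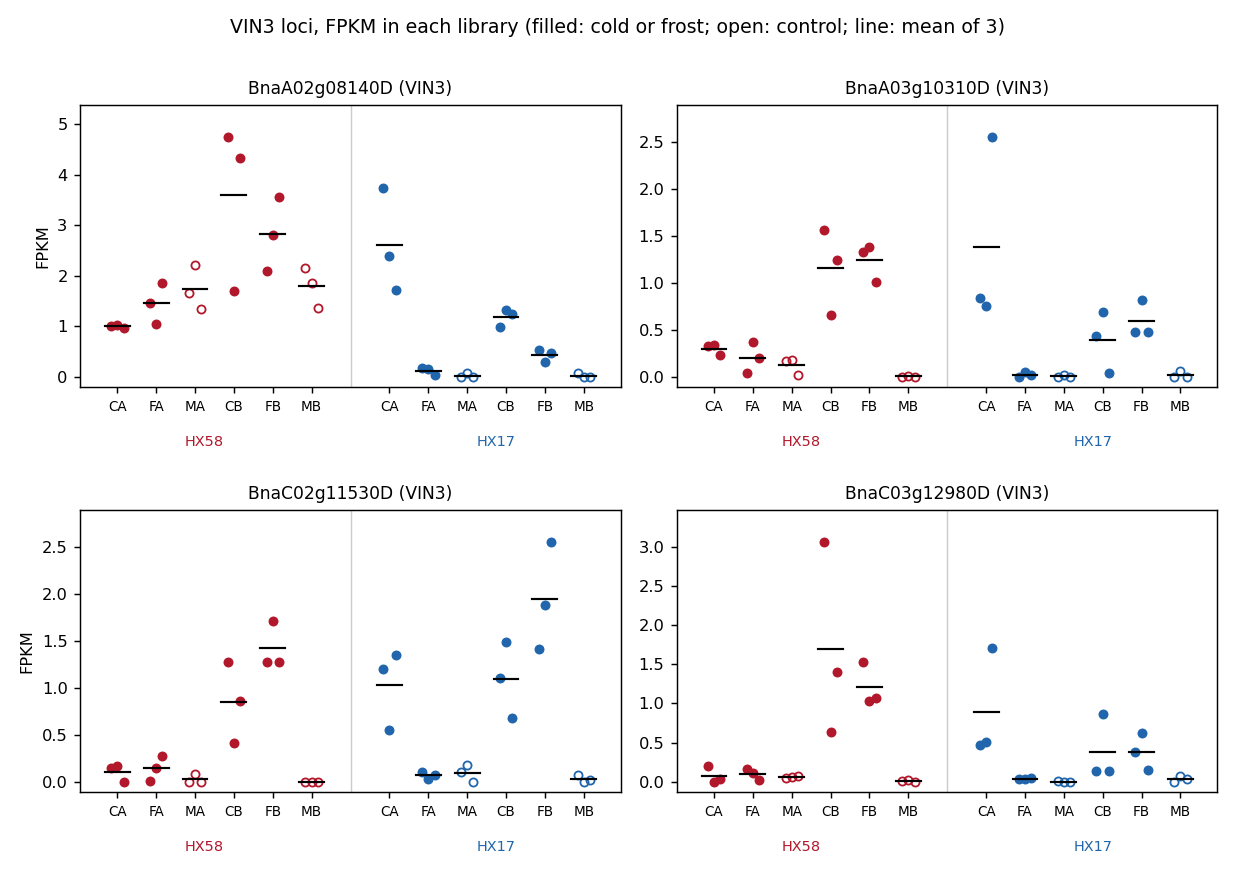
FPKM of each of the 4 VIN3 loci in each of the 36 libraries, by variety (HX58 left, red; HX17 right, blue) and condition, with filled points for cold or freezing, open points for the controls and a line at the mean of 3 libraries. BnaA02g08140D stood at 1.34 to 2.204 FPKM in the HX58 controls and at 0 to 0.0722 FPKM in the HX17 controls, while the other 3 loci were near 0 in the controls of both varieties.

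In HX17, BnaA02g08140D had 3.74, 2.40 and 1.72 FPKM in the HX17_CA libraries, against 0, 4 and 0 counts in HX17_MA. The groups did not overlap, and the log2 fold change was 6.86 ± 0.89 (adjusted p = 0.00373). BnaA03g10310D had 258 counts over the 3 HX17_CA libraries and 1 count over the 3 HX17_MA libraries, a ratio of 273 with an exact 95% counting interval of 48.6 to 10837 (adjusted p = 0.00384). BnaC03g12980D had 163 counts against 1 count, a ratio of 173 with an interval of 30.6 to 6862, and missed the limit for a call (adjusted p = 0.00695). BnaC02g11530D, with 1.21, 0.550 and 1.36 FPKM in HX17_CA and 0.107, 0.176 and 0 FPKM in HX17_MA, had a log2 fold change of 3.44 ± 0.90 (adjusted p = 0.0461). All 4 loci were therefore higher in every HX17_CA library than in any control library, but only 2 of the 13 tested family members were called, where 1.06% of all 49872 tested genes were. Both calls depended on single libraries: that for BnaA02g08140D was lost without HX17_MA replicate 1 or 3 or HX17_CA replicate 1 or 2 (adjusted p 0.0141 to 0.0248), and that for BnaA03g10310D without any HX17_MA library or without HX17_CA replicate 1 or 2 (0.00873 to 0.0292). With no filter on low counts, edgeR called 3 of the 4 loci, adding BnaC03g12980D (adjusted p = 0.000912), and DESeq2 called all 4. The counting intervals leave out the spread between libraries, and they are too narrow if reads or mates of 1 fragment were counted more than once, which was not tested.

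After 12 h at 4° without acclimation, BnaA02g08140D had 0.987, 1.32 and 1.24 FPKM in HX17_CB, against 4, 0 and 0 counts in HX17_MB, a log2 fold change of 5.33 ± 0.90 (adjusted p = 0.00259). BnaC02g11530D had 1.10, 1.49 and 0.684 FPKM in HX17_CB, against 4, 0 and 1 counts in HX17_MB (4.92 ± 0.83 on the log2 scale, adjusted p = 0.00252). Neither locus overlapped between the groups. These were the only VIN3 loci that passed the filter on low counts in this comparison, through their HX17_CB libraries. Of 11 tested family members 3 were called, against 14.2% of 52816 genes. Leaving out HX17_MB replicate 2 or 3 or any HX17_CB library ended the call of BnaA02g08140D (adjusted p 0.00520 to 0.0115), and leaving out any HX17_MB library or HX17_CB replicate 1 or 2 ended that of BnaC02g11530D (0.00536 to 0.0159). The 2 untested loci were uneven, with 38, 49 and 3 counts of BnaA03g10310D and 12, 60 and 10 counts of BnaC03g12980D in the HX17_CB libraries.

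After 12 h at -4° without acclimation, the locus on C02 carried most of the VIN3 RNA in HX17, with 58.0% of the summed group mean. BnaC02g11530D had 1.42, 1.89 and 2.55 FPKM in HX17_FB, against 4, 0 and 1 counts in HX17_MB. The groups lay far apart, with a log2 fold change of 6.02 ± 0.69 (adjusted p = 0.000171) that was called with each of the 6 libraries left out. BnaA03g10310D had 0.482, 0.816 and 0.482 FPKM in HX17_FB, against 0, 4 and 0 counts in HX17_MB (4.67 ± 0.98, adjusted p = 0.00370), a call lost without HX17_MB replicate 1 or 3 or any HX17_FB library (0.00767 to 0.0176). BnaA02g08140D, with 53, 18 and 30 counts in HX17_FB and 4, 0 and 0 counts in HX17_MB, was not called (4.15 ± 1.02, adjusted p = 0.00801). In all, 3 of 12 tested members were called, against 26.1% of 52135 genes. In HX17_FA none of the 4 VIN3 loci passed the filter against HX17_MA: their counts over 3 libraries were 25 against 4 for BnaA02g08140D, 14 against 18 for BnaC02g11530D, 5 against 1 for BnaA03g10310D and 8 against 1 for BnaC03g12980D.

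In HX58, 1 VIN3 locus was already transcribed in warm-grown leaves, and only the groups without acclimation stood above their control. The summed VIN3 level was 1.69, 1.54 and 1.22 FPKM in HX58_CA and 1.68, 1.68 and 2.36 FPKM in HX58_FA, against 1.87, 2.54 and 1.43 FPKM in HX58_MA. It was 10.6, 3.41 and 7.85 FPKM in HX58_CB and 6.23, 6.94 and 6.92 FPKM in HX58_FB, against 2.18, 1.90 and 1.37 FPKM in HX58_MB. The acclimated groups thus overlapped their control, and the groups without acclimation lay above theirs in every library. Of the summed group means, BnaA02g08140D made up 89.1% in HX58_MA and 99.0% in HX58_MB, but 49.2% in HX58_CB and 42.1% in HX58_FB, where the other 3 loci were counted as well.

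**Figure D2:**
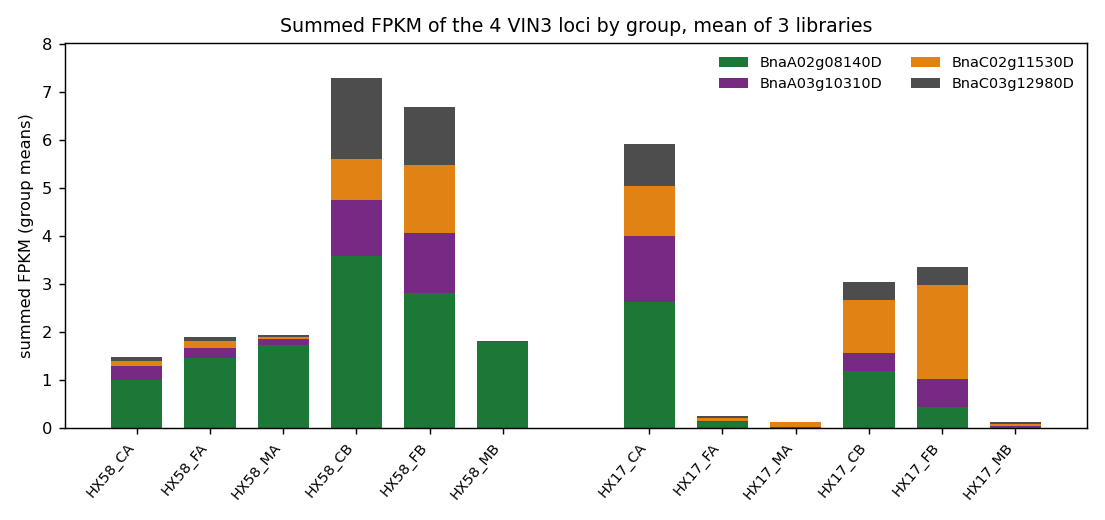
Summed FPKM of the 4 VIN3 loci in each of the 12 groups (mean of 3 libraries, bars stacked by locus, HX58 left and HX17 right). The HX58 controls consist almost wholly of BnaA02g08140D, with 89.1% and 99.0% of the sum, and the HX17 controls and HX17_FA stand near 0.

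BnaA02g08140D itself passed no call against the controls in HX58. It had 1.01, 1.03 and 0.958 FPKM in HX58_CA, all below the HX58_MA libraries with 1.66, 2.204 and 1.34 FPKM (log2 fold change -0.74 ± 0.40, adjusted p = 0.219). HX58_FA, with 1.45, 1.05 and 1.86 FPKM, overlapped HX58_MA (-0.28 ± 0.33, adjusted p = 0.545). HX58_CB had 4.75, 1.70 and 4.34 FPKM, against 2.16, 1.86 and 1.37 FPKM in HX58_MB (0.93 ± 0.32, adjusted p = 0.0388), and the groups overlapped through HX58_CB replicate 2. HX58_FB, with 2.10, 2.81 and 3.56 FPKM, also overlapped HX58_MB (0.65 ± 0.28, adjusted p = 0.0816).

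The other 3 VIN3 loci were nearly silent in HX58_MB and were counted in every HX58_CB and HX58_FB library. BnaC02g11530D had 95, 32 and 55 counts in HX58_CB and 96, 131 and 98 counts in HX58_FB, against 0 counts in HX58_MB. It was thus at least 57.2-fold higher in HX58_CB (adjusted p = 0.000542) and at least 96.4-fold higher in HX58_FB (adjusted p = 0.000122), taking 3 counts over the control group as the bound. BnaA03g10310D had 120, 53 and 82 counts in HX58_CB and 104, 109 and 80 counts in HX58_FB, against 1 count over HX58_MB. The ratios were 240 with an exact 95% counting interval of 42.7 to 9528 in HX58_CB (adjusted p = 0.000122) and 261 with an interval of 46.4 to 10328 in HX58_FB (adjusted p = 6.81e-05). BnaC03g12980D had 229, 50 and 90 counts in HX58_CB and 116, 80 and 83 counts in HX58_FB, against 3 counts over HX58_MB, ratios of 116 (39.4 to 565) and 82.7 (28.0 to 404), with adjusted p = 0.000229 and 0.000116. HX58_CB replicate 2 was the lowest of its group for all 3 loci, yet no group overlapped its control. These 6 calls held with each library left out. In all, 6 of 14 tested members were called in HX58_CB, against 26.0% of 54011 genes, and 7 of 14 in HX58_FB, against 29.7% of 54813 genes. HX58_CB and HX58_FB share the control.

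In acclimated HX58 plants these 3 loci gave no call. BnaA03g10310D had 0.332, 0.337 and 0.228 FPKM in HX58_CA and 0.0414, 0.368 and 0.203 FPKM in HX58_FA, against 0.165, 0.183 and 0.0177 FPKM in HX58_MA. HX58_CA lay just above the control libraries and HX58_FA overlapped them, with log2 fold changes of 1.29 ± 1.10 (adjusted p = 0.453) and 0.67 ± 1.00 (adjusted p = 0.637). The controls were unlike at this locus, with 14, 15 and 1 counts in HX58_MA and 0, 1 and 0 in HX58_MB. Their ratio was 28.2, with an exact 95% counting interval of 4.69 to 1151. Every HX58_CA and HX58_FA library lay above every HX58_MB library in FPKM. The contrast between direct cold and acclimation at BnaA03g10310D therefore depends on the control used. BnaC02g11530D had 18 counts over HX58_CA and 35 over HX58_FA, against 7 over HX58_MA, and BnaC03g12980D had 13 and 28, against 13, so that neither was tested. In HX58_CA, edgeR called 0 of 12 tested family members, with 5 at an unadjusted p under 0.05 and 1 called by DESeq2, and 5.37% of all 50811 genes were called.

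Set against each other in the same condition, the varieties differed at BnaA02g08140D in both controls. It had 1.66, 2.204 and 1.34 FPKM in HX58_MA, against 0, 4 and 0 counts in HX17_MA, a log2 fold change of 6.11 ± 0.91 (adjusted p = 0.00119) that was lost without HX17_MA replicate 1 (0.00574) or HX58_MA replicate 1 (0.00547). It had 2.16, 1.86 and 1.37 FPKM in HX58_MB, against 4, 0 and 0 counts in HX17_MB (6.03 ± 0.74, adjusted p = 0.000171), called with each library left out. No HX17 control library came near an HX58 control library at this locus. In these comparisons 2 of 11 tested members were called each time, against 10.7% of 53306 genes in MA and 18.7% of 54272 genes in MB. The other VIN3 loci did not pass the filter between the controls.

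After treatment the difference between the varieties at BnaA02g08140D was positive in FA, CB and FB and negative in CA. BnaA02g08140D was higher in HX58_FA than in HX17_FA, with 1.45, 1.05 and 1.86 FPKM against 0.177, 0.154 and 0.0309 FPKM (3.22 ± 0.58, adjusted p = 0.00218), and higher in HX58_FB than in HX17_FB, with 2.10, 2.81 and 3.56 FPKM against 0.528, 0.298 and 0.467 FPKM (2.44 ± 0.37, adjusted p = 0.00178). Both calls kept their direction but were lost without some libraries, the first without HX17_FA replicate 1 or any HX58_FA library (0.00605 to 0.0138), the second without replicate 2 or 3 of either group (0.00646 to 0.00888). In HX58_CB and HX17_CB the difference was 1.55 ± 0.35 (adjusted p = 0.0113). In CA all 3 HX58_CA libraries lay below all 3 HX17_CA libraries at each of the 4 VIN3 loci, with log2 differences of -1.53 ± 0.39 at BnaA02g08140D (adjusted p = 0.0166), -2.32 ± 0.62 at BnaA03g10310D (0.0206), -3.39 ± 0.99 at BnaC02g11530D (0.0303) and -3.64 ± 1.16 at BnaC03g12980D (0.0422). None of these is a call. For HX58_CA against HX17_CA, edgeR called 0 of 13 tested members, with 6 at an unadjusted p under 0.05 and 6 called by DESeq2, where 11.5% of 49985 genes were called. Family members called numbered 2 of 11 in FA, 2 of 13 in CB and 1 of 13 in FB, against 17.2%, 10.7% and 10.4% of all tested genes.

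The difference between the varieties in their response was tested as an interaction, the log2 fold change of HX58 minus that of HX17. For CA against MA it was -7.61 ± 0.96 at BnaA02g08140D (adjusted p = 0.00226), a call lost without any of 9 of the 12 libraries (adjusted p 0.00532 to 0.00923) and kept without HX17_MA replicate 2, HX17_CA replicate 3 or HX58_MA replicate 3. It was the only family member called of 14 tested, where 0.169% of 56322 genes were. The size of this difference rests on a control group with 4 counts in 1 library. For the other treatments the interaction at BnaA02g08140D was -2.83 ± 1.14 for FA (adjusted p = 0.205), -4.41 ± 0.85 for CB (0.00624) and -3.63 ± 0.88 for FB (0.0231). The other 3 VIN3 loci had the opposite sign in CB and FB, a larger log2 fold change in HX58 than in HX17, without a call (adjusted p 0.154 to 0.252 in CB and 0.175 to 0.277 in FB), and the same sign as BnaA02g08140D in CA (0.0405 to 0.749). The sizes of these differences are not given because 3 or fewer counts stood in a control group of most of them. EdgeR called 0 of 14 members in each of these 3 interactions, with 3, 6 and 3 members at an unadjusted p under 0.05 and 0, 1 and 1 called by DESeq2, and the shares of all genes called were 0.23%, 1.92% and 1.6%.

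Comparisons among the treated groups placed freezing after acclimation apart in HX17. BnaA02g08140D had 0.177, 0.154 and 0.0309 FPKM in HX17_FA, against 3.74, 2.40 and 1.72 FPKM in HX17_CA (-4.35 ± 0.62, adjusted p = 0.00210), and BnaA03g10310D had 0, 4 and 1 counts, against 51, 55 and 152 (-5.76 ± 0.88, adjusted p = 0.00306). The groups were far apart at both loci, but the first call was lost without replicate 1 or 2 of either group (0.00659 to 0.0104) and the second without HX17_CA replicate 2 or 3 or any HX17_FA library (0.00678 to 0.0150). These 2 were the only calls among 13 tested members, against 4.22% of 49135 genes. BnaC02g11530D had 0.106, 0.0356 and 0.0773 FPKM in HX17_FA, against 1.42, 1.89 and 2.55 FPKM in HX17_FB (-4.50 ± 0.54, adjusted p = 0.000682), called with each library left out. In that comparison 2 of 13 members were called, against 7.4% of 49995 genes.

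In HX58 the matching contrast of freezing with and without acclimation called BnaC03g12980D, with 0.169, 0.111 and 0.0259 FPKM in HX58_FA, against 1.52, 1.04 and 1.07 FPKM in HX58_FB (-3.41 ± 0.59, adjusted p = 0.00176). This call was lost without HX58_FA replicate 2 (0.00840) or HX58_FB replicate 1 or 2 (0.00692 and 0.00570). The other 3 loci lay lower in all HX58_FA libraries too, without a call, at -0.86 ± 0.30 for BnaA02g08140D (adjusted p = 0.0434), -2.47 ± 0.64 for BnaA03g10310D (0.0126) and -3.21 ± 0.74 for BnaC02g11530D (0.00748). Family members called were 4 of 14, against 22.4% of 54173 genes. Acclimated chilling against direct chilling gave no call at any member in either variety by edgeR (0 of 13 each, with 5 at an unadjusted p under 0.05 in each variety and 2 called by DESeq2 in each), where 1.48% of genes in HX17 and 17.2% in HX58 were called. At BnaA02g08140D the direction of that contrast was opposite in the varieties, with 1.69 ± 0.36 for HX17_CA against HX17_CB (adjusted p = 0.0200) and -1.49 ± 0.39 for HX58_CA against HX58_CB (adjusted p = 0.0129). The difference between these contrasts was not tested. Freezing against chilling without acclimation (FB against CB) called 0 of 13 members in each variety, with 4 at an unadjusted p under 0.05 in HX58 and 2 in HX17, beside 2.92% and 2.85% of all genes, and the controls MB and MA differed at 0 of 11 members in HX58 and 0 of 9 in HX17, with 4 and 1 at an unadjusted p under 0.05, beside 0.015% and 1.1% of all genes. DESeq2 called 0 members in these 4 comparisons.

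Across the 12 groups, the mean FPKM of BnaA02g08140D was highest in HX58_CB (3.59 ± 1.65, SD, n = 3), followed by HX58_FB (2.82 ± 0.73) and HX17_CA (2.62 ± 1.03). Below them came the HX58 controls, HX58_FA, HX17_CB and HX58_CA (0.999 ± 0.036). Down to HX58_CA, each group in this order overlapped the next. In TMM-scaled CPM, HX17_CA had 7.70, 4.98 and 3.31, HX58_CB had 6.26, 2.74 and 5.78, and HX58_FB had 2.99, 3.90 and 5.44. On that scale HX17_CA had the highest mean, so the order of the overlapping groups depends on the scale. HX58_CA lay above HX17_FB, and HX17_FB above HX17_FA, without overlap. The patterns of the other 3 loci were more alike: over the 36 libraries Pearson's r of log2(CPM + 1) was 0.91 between BnaA03g10310D and BnaC03g12980D, 0.80 between BnaA03g10310D and BnaC02g11530D and 0.72 between BnaC02g11530D and BnaC03g12980D, but 0.33 to 0.60 between BnaA02g08140D and each of them. These libraries share 12 groups, and reads may be shared between the copies, so the values are descriptions. BnaC02g11530D differed from the pair on A03 and C03 in being highest in HX17_FB (1.95 ± 0.57 FPKM).

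Among the VIL2 loci, 2 were higher after freezing of acclimated plants in both varieties. BnaC07g42420D (C07, 41868672 to 41871436, minus strand), the most abundant family member, had 8.09, 8.19 and 11.3 FPKM in HX17_FA, against 2.93, 2.46 and 2.74 FPKM in HX17_MA (1.86 ± 0.25, adjusted p = 0.000600). In HX58 it had 12.5, 11.9 and 12.5 FPKM in HX58_FA, against 4.37, 4.45 and 4.68 FPKM in HX58_MA (1.44 ± 0.15, adjusted p = 0.000112). The groups were well apart, and both calls held with each library left out. The other control, HX58_MB, with 6.60, 7.81 and 7.18 FPKM, lay above every HX58_MA library and below every HX58_FA library. The size of the difference in HX58 therefore depends on the control used. BnaAnng10940D (on an A-subgenome sequence not placed on a chromosome) had 10.9, 9.83 and 13.5 FPKM in HX17_FA, against 4.12, 2.95 and 2.97 FPKM in HX17_MA (1.86 ± 0.27, adjusted p = 0.000959, lost without HX17_MA replicate 3, 0.00600, or HX17_FA replicate 1, 0.00544). In HX58 it had 3.99, 4.94 and 4.57 FPKM in HX58_FA, against 1.15, 0.766 and 1.15 FPKM in HX58_MA (2.13 ± 0.25, adjusted p = 0.000234, called with each library left out). These were the only family members called against MA after freezing, 2 of 9 tested in HX17, where 7.89% of 50788 genes were called, and 2 of 13 in HX58, where 16.7% of 54030 genes were. At BnaAnng10940D too, HX58_MB lay above every HX58_MA library and below every HX58_FA library, with 1.85, 2.84 and 1.60 FPKM.

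Chilling after acclimation gave no call at either locus. BnaC07g42420D had 5.81, 7.73 and 8.19 FPKM in HX17_CA, above all HX17_MA libraries (1.41 ± 0.24, adjusted p = 0.0108), and 6.66, 8.74 and 9.29 FPKM in HX58_CA, above all HX58_MA libraries (0.93 ± 0.22, adjusted p = 0.0143). Without acclimation, HX58_CB had 15.4, 18.2 and 16.5 FPKM, the highest group of any family locus, against 6.60, 7.81 and 7.18 FPKM in HX58_MB (1.20 ± 0.23, adjusted p = 0.00230). That call was lost without HX58_MB replicate 1 or 2 or HX58_CB replicate 3 (0.00875 to 0.0176). BnaC07g42420D was also higher in HX58_CB than in HX17_CB, which had 6.45, 6.77 and 4.38 FPKM (1.53 ± 0.26, adjusted p = 0.00280), a call lost without any HX17_CB library or HX58_CB replicate 2 or 3 (0.00653 to 0.0121). No interaction of variety and treatment was called at this locus.

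BnaAnng10940D had a lower mean level in HX58 than in HX17 in each of the 6 conditions, with a call in 3 of them. It was lower in HX58_CB than in HX17_CB, with 1.82, 1.15 and 2.45 FPKM against 7.53, 9.87 and 6.35 FPKM (-2.16 ± 0.28, adjusted p = 0.000721), and lower in HX58_FA than in HX17_FA, with 3.99, 4.94 and 4.57 FPKM against 10.9, 9.83 and 13.5 FPKM (-1.69 ± 0.20, adjusted p = 0.000212). Both calls held with each library left out. In the controls it was lower in HX58_MA than in HX17_MA, with 1.15, 0.766 and 1.15 FPKM against 4.12, 2.95 and 2.97 FPKM (-1.88 ± 0.31, adjusted p = 0.00227), lost without HX17_MA replicate 1 or 3 or any HX58_MA library (0.00608 to 0.0136). The differences in CA (-1.59 ± 0.34, adjusted p = 0.00679), FB (-0.98 ± 0.27, 0.0294) and MB (-1.03 ± 0.23, 0.00577) had the same sign without a call.

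**Figure D3:**
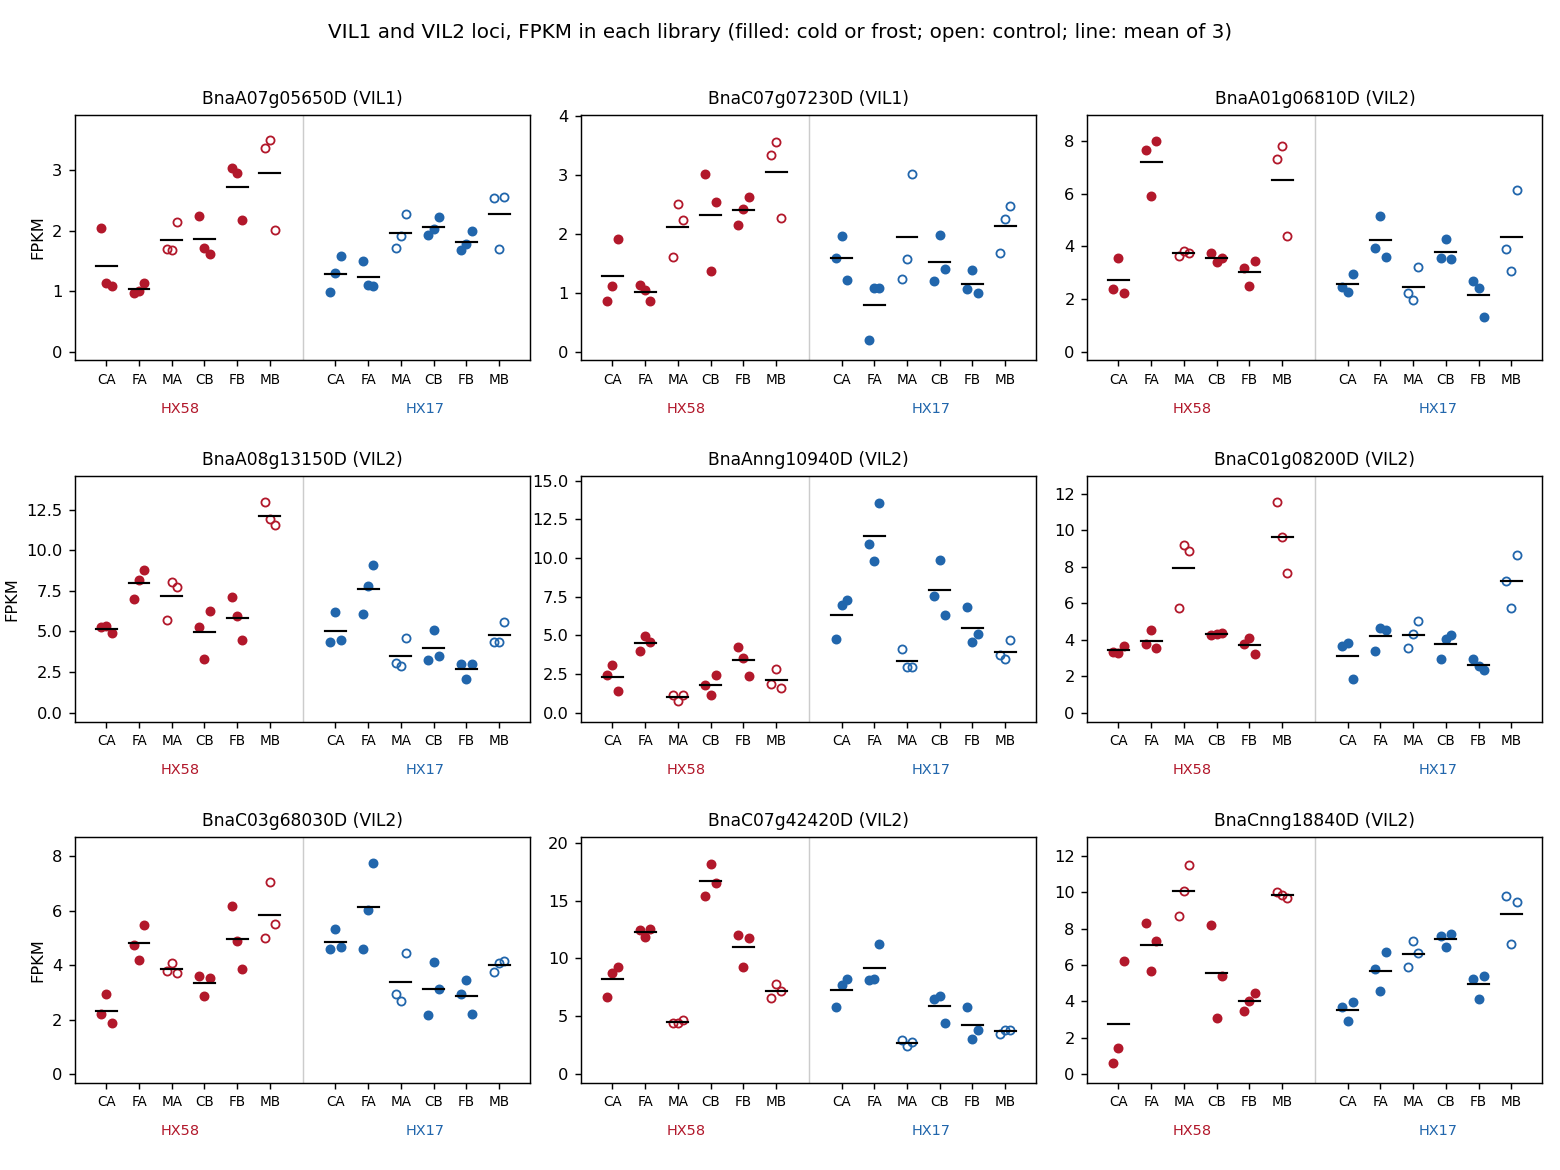
FPKM of the 2 VIL1 and 7 VIL2 loci with a mean level of 0.5 FPKM or more in each of the 36 libraries, by variety (HX58 left, red; HX17 right, blue) and condition, with filled points for cold or freezing, open points for the controls and a line at the mean of 3. BnaC07g42420D reaches 18.2 FPKM in HX58_CB, and BnaC01g08200D stands higher in HX58_MB (7.64 to 11.5 FPKM) than in either group compared with it.

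Other VIL2 loci were lower after cold without acclimation than in the control MB. BnaC01g08200D (C01, 4361947 to 4364186, plus strand) had 4.24, 4.33 and 4.36 FPKM in HX58_CB and 3.75, 4.10 and 3.21 FPKM in HX58_FB, against 11.5, 9.66 and 7.64 FPKM in HX58_MB. All treated libraries lay below all control libraries, with log2 fold changes of -1.17 ± 0.21 in HX58_CB (adjusted p = 0.00157) and -1.40 ± 0.17 in HX58_FB (adjusted p = 0.000224). In HX17 it had 2.97, 4.07 and 4.24 FPKM in HX17_CB and 2.96, 2.57 and 2.33 FPKM in HX17_FB, against 7.23, 5.75 and 8.64 FPKM in HX17_MB (-1.15 ± 0.21, adjusted p = 0.00394, and -1.39 ± 0.22, adjusted p = 0.000876). The fall in HX58_FB was called with each library left out. That in HX58_CB was lost without replicate 1 or 2 of HX58_MB or 1 or 3 of HX58_CB (0.00513 to 0.0118), that in HX17_CB without any 1 of its 6 libraries (0.00614 to 0.0186), and that in HX17_FB without HX17_MB replicate 1 (0.00621) or 3 (0.00569). Against MA the locus was called in no group, with -1.15 ± 0.23 in HX58_CA (adjusted p = 0.00779) and -1.01 ± 0.21 in HX58_FA (adjusted p = 0.00525). HX58_MA, with 5.77, 9.22 and 8.87 FPKM, also lay above all HX58_CB and HX58_FB libraries. HX17_MA, with 3.55, 4.29 and 5.02 FPKM, lay above HX17_FB but overlapped HX17_CB. In TMM-scaled CPM, HX17_MA had 8.41, 8.78 and 10.7, above every HX17_CB library with 4.65, 6.11 and 6.72. HX17_MA lay below HX17_MB on both scales, so the size of the fall in HX17_CB depends on the control used.

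BnaA08g13150D (A08, 11441374 to 11443296, plus strand) was lower in HX58_CB, with 5.29, 3.32 and 6.29 FPKM, than in HX58_MB, with 12.9, 11.9 and 11.5 FPKM (-1.35 ± 0.22, adjusted p = 0.000942, lost without HX58_MB replicate 1, 0.00580). It was lower in HX58_FB too, with 7.12, 5.96 and 4.45 FPKM (-1.10 ± 0.19, adjusted p = 0.00152), a call lost without HX58_MB replicate 1 (0.00805) or 3 (0.00562) or HX58_FB replicate 2 (0.00778), and also without HX58_FB replicate 3, where the adjusted p was 0.00399 but the change fell under 2-fold. In FPKM no other group of either variety reached the level of HX58_MB. In TMM-scaled CPM, HX17_FA replicate 3, with 16.8, exceeded HX58_MB replicate 2, with 15.5. HX58_MB was above HX17_MB, with 4.35, 4.37 and 5.60 FPKM, in each library (1.25 ± 0.17, adjusted p = 0.000293, called with each library left out). The other control, HX58_MA, had 5.72, 8.06 and 7.73 FPKM and overlapped both HX58_CB and HX58_FB. In TMM-scaled CPM it had 9.36, 13.5 and 11.1, above every HX58_CB library (4.83 to 7.59) and every HX58_FB library (6.16 to 9.18). HX58_MA lay below HX58_MB on both scales, so the size of the falls in HX58_CB and HX58_FB depends on the control used. In HX17 the locus was higher in HX17_FA than in HX17_FB, with 6.08, 7.79 and 9.06 FPKM against 3.01, 2.05 and 2.98 FPKM (1.74 ± 0.27, adjusted p = 0.00228, lost without HX17_FA replicate 1 or any HX17_FB library, 0.00634 to 0.0108).

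BnaA01g06810D (A01, 3166824 to 3169058, plus strand) was higher in HX58 plants frozen after acclimation than in those frozen without, with 7.69, 5.93 and 8.01 FPKM in HX58_FA, against 3.16, 2.50 and 3.45 FPKM in HX58_FB (1.35 ± 0.20, adjusted p = 0.000769, lost without HX58_FA replicate 3, 0.00527). It was also higher in HX58_FA than in HX58_CA, which had 2.39, 3.55 and 2.23 FPKM (1.28 ± 0.24, adjusted p = 0.00230), the single call among 12 tested members, against 16% of 52248 genes, and it was lost without HX58_CA replicate 1 or 3 or any HX58_FA library (0.00515 to 0.0149). HX58_FB lay below HX58_MB, with 7.31, 7.82 and 4.41 FPKM (-1.09 ± 0.23, adjusted p = 0.00373), lost without replicate 1 or 2 of either group (0.0130 to 0.0184). The other control, HX58_MA, with 3.65, 3.81 and 3.76 FPKM, lay below every HX58_MB library and above every HX58_FB library. The size of this fall therefore depends on the control used. BnaCnng18840D, whose gene model of 549 bases is the shortest of the family and lies on an unplaced C-subgenome sequence, was lower in HX58_FB with 3.48, 4.03 and 4.47 FPKM than in HX58_MB with 10.02, 9.84 and 9.68 FPKM (-1.33 ± 0.24, adjusted p = 0.00185). Leaving out any HX58_MB library or HX58_FB replicate 1 or 2 ended that call (0.00506 to 0.00916). In HX58_CA its libraries were split, with 0.613, 1.45 and 6.22 FPKM. BnaC03g68030D (C03, 57629963 to 57631885, plus strand), with 1.87 to 7.76 FPKM over the 36 libraries, was called in none of the 28 comparisons.

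**Figure D4:**
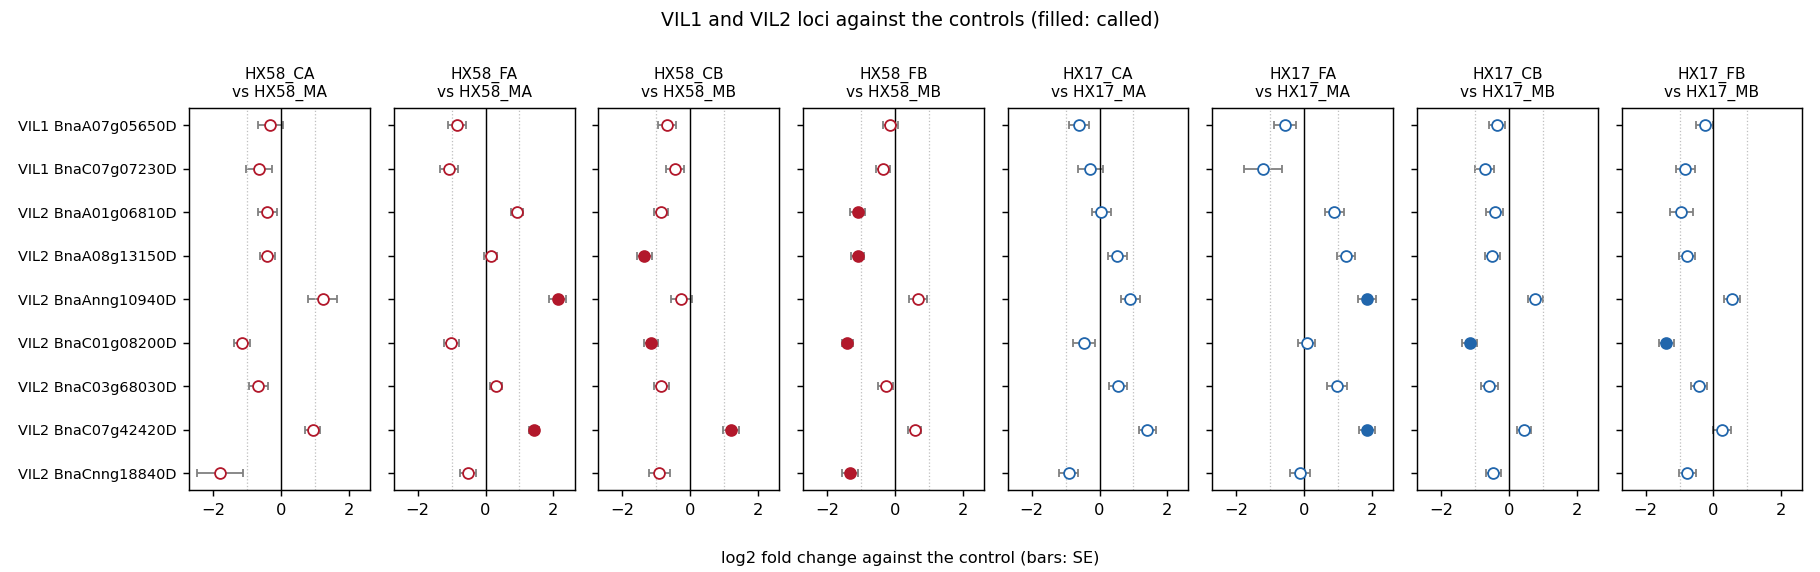
Log2 fold change against the control (horizontal axis, bars are the SE) of the 2 VIL1 and 7 VIL2 loci in the 8 cold or freezing groups, HX58 left in red and HX17 right in blue, with filled points for calls and dotted lines at 2-fold. BnaC07g42420D and BnaAnng10940D are filled on the right in both FA panels, and BnaC01g08200D is filled on the left in both CB and both FB panels.

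VIL1, which in Arabidopsis works with VIN3 at FLC, had 1 call at each of its measured loci, both for freezing in HX58 with and without acclimation. BnaA07g05650D had 0.961, 0.996 and 1.13 FPKM in HX58_FA, against 3.04, 2.95 and 2.18 FPKM in HX58_FB (-1.29 ± 0.22, adjusted p = 0.00183), a call lost without any HX58_FA library or HX58_FB replicate 1 or 2 (0.00748 to 0.00886). BnaC07g07230D had 1.13, 1.04 and 0.855 FPKM in HX58_FA, against 2.15, 2.41 and 2.63 FPKM in HX58_FB (-1.14 ± 0.24, adjusted p = 0.00424), lost without any 1 of the 6 libraries (0.00749 to 0.0199). Neither VIL1 locus was called against a control or between the varieties. HX17_FA replicate 1 stood low for BnaC07g07230D, with 0.201 FPKM beside 1.07 and 1.08 FPKM in the other HX17_FA libraries.

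The remaining 3 loci were too low to describe, with mean levels under 0.5 FPKM. BnaA07g05640D, a VIL1 match next to BnaA07g05650D on A07, had 5 counts over all 36 libraries. BnaA06g25100D had 123 counts in 19 libraries and BnaC03g74580D had 386 counts in 29 libraries, both VIL2 matches of 1188 and 1218 bases, and no comparison called them.

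The rest of the pathway was read from lists of Swiss-Prot matches. Of 48 loci for VRN1, VRN2 and subunits or partners of the Polycomb complex (CLF, SWN, FIE, MSI1, EMF2, LHP1), 7 of 28 tested were higher and 1 lower in HX58_FB, and 5 of 26 higher and 0 lower in HX58_CB, with median log2 fold changes of 0.08 and 0.15, beside 0.01 and -0.02 over all tested genes. In HX17_FB 4 of 26 and in HX17_CB 1 of 26 were higher and none lower, with medians of 0.18 and 0.08, beside -0.04 and 0.01. For reference, 16.1%, 14.2%, 12.8% and 5.98% of all genes were called higher in these 4 comparisons. Both CLF loci, for a histone methyltransferase of the complex, were among those higher in HX58_CB and HX58_FB. After acclimation 3 of 27 were higher in HX58_FA, 1 of 27 was lower in HX58_CA, and 0 of 27 and 0 of 26 were called in HX17_CA and HX17_FA, where the shares of all genes called in either direction were 16.7%, 5.37%, 1.06% and 7.89%.

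FLC is the target of the family in Arabidopsis. Its most abundant locus, BnaC09g46540D, had 15.5, 12.4 and 9.32 FPKM in HX58_CB and 11.9, 14.8 and 18.8 FPKM in HX58_FB, against 85.1, 75.5 and 33.8 FPKM in HX58_MB (-2.37 ± 0.32, adjusted p = 0.000373, and -2.07 ± 0.31, adjusted p = 0.000772), and no HX17 library exceeded 0.487 FPKM. In HX58_CA and HX58_FA it was not called against HX58_MA (0.15 ± 0.23 and 0.44 ± 0.17, adjusted p = 0.702 and 0.0777). The 2 control groups stood apart at this locus, with 17.9, 21.5 and 21.4 FPKM in HX58_MA, below every HX58_MB library. HX58_FB overlapped HX58_MA, and all HX58_CA and HX58_FA libraries (15.2 to 31.7 FPKM) lay below HX58_MB. The contrast between direct cold and acclimation at this locus therefore depends on the control used. Of 18 loci of the FLC clade, 4 of 11 tested were lower in HX58_FB and 3 of 11 in HX58_CB, none were called in HX58_CA or HX58_FA, and 2 of 7 were lower in HX17_CB and in HX17_FB, with 1 higher in HX17_FB. Of all tested genes, 13.6% were called lower in HX58_FB, 11.8% in HX58_CB, 8.19% in HX17_CB and 13.3% in HX17_FB. Of 9 loci for VAL1 and VAL2, B3-domain repressors that recruit the complex to FLC, 8 were tested and at most 1 in either direction was called in any of the 8 comparisons with a control, and the same held for 16 loci of FLC activators (FRI, FRL1, FES1, SUF4), of which 12 or 13 were tested.

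Other measured quantities moved in some of the same comparisons. The morning clock genes LHY and CCA1, of which CCA1 is known as an activator of VIN3 in Arabidopsis, together with the VIN3 activator NTL8 formed a list in which 5 of 8 tested loci were lower in HX58_CB, 6 of 8 in HX58_FB, 4 of 7 in HX17_CB and 6 of 8 in HX17_FB, with none higher, beside 11.8%, 13.6%, 8.19% and 13.3% of all tested genes called lower. The leading CCA1 locus, BnaA05g01050D, had 13.3, 16.8 and 26.2 FPKM in HX58_FB, against 193, 211 and 160 FPKM in HX58_MB (-3.33 ± 0.31, adjusted p = 7.11e-05). In HX17_CA, where VIN3 was highest in that variety, BnaA05g01050D had 152, 125 and 106 FPKM, against 92.1, 91.5 and 117 FPKM in HX17_MA (0.36 ± 0.22, adjusted p = 0.318). In HX17_FA, where summed VIN3 overlapped its control, BnaA05g01050D had 31.7, 49.0 and 34.9 FPKM. In HX58_FA, where summed VIN3 also overlapped its control, it had 52.3, 39.2 and 44.3 FPKM, against 137, 217 and 135 FPKM in HX58_MA. The summed level of 19 loci for markers of dividing cells was 38.7 to 50.9 FPKM in HX17_CB and 20.5 to 30.9 FPKM in HX17_FB, against 82.2 to 111 FPKM in HX17_MB, and 12.3 to 40.6 FPKM in HX58_CB and 22.2 to 36.4 FPKM in HX58_FB, against 40.1 to 42.6 FPKM in HX58_MB. Over the 36 libraries the 10 loci of the marker CYCB1-2 had by far the largest median sum, so these sums do not describe the 19 loci as a set. Marker loci with a mean of 1 FPKM or more numbered 2 in HX58_MB, 5 in HX58_CB and 6 in HX58_FB. In HX17 they numbered 5 in each of HX17_MB, HX17_CB and HX17_FB. The photosynthetic leaf loci summed to 31086 to 36997 FPKM in HX58_CB and 35963 to 56397 FPKM in HX58_FB, against 53309 to 77953 FPKM in HX58_MB, but to 128731 to 142350 FPKM in HX58_CA and 130450 to 137467 FPKM in HX58_FA, against 77614 to 90374 FPKM in HX58_MA. In HX17 they summed to 39173 to 54142 FPKM in HX17_CB and 33644 to 64126 FPKM in HX17_FB, against 59858 to 70896 FPKM in HX17_MB, and to 72608 to 95722 FPKM in HX17_CA and 101190 to 140379 FPKM in HX17_FA, against 73312 to 91635 FPKM in HX17_MA. Over the 36 libraries the 9 loci of LHCB1.3 had by far the largest median sum of the leaf genes. It was 50661 FPKM, beside 3.65 FPKM for RBCS1A, so the leaf sums do not describe the 27 loci as a set. The part of these measured quantities in the levels of the family was not tested.

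The genes whose pattern was most like BnaA02g08140D over the 36 libraries, by Pearson's r of log2(CPM + 1) among 43441 genes, were BnaA09g35560D, matching Ferritin-3 (r = 0.80), BnaC07g05820D, matching the small GTPase ARAC3 (0.79), BnaA09g45710D, matching the ubiquitin ligase RING1 (0.78), BnaA09g51070D with no match (0.78) and BnaC02g16080D, matching an F-box protein (0.77). For BnaC07g42420D they were BnaA01g33620D, matching a pentatricopeptide repeat protein (0.83), BnaC07g21370D, matching the microtubule protein MAP65-6 (0.82), BnaC03g76520D with no match (0.81), BnaA06g01940D, matching the homeobox protein ATHB-15 (0.81) and BnaA01g30040D, matching the transporter ABCC3 (0.81). The libraries share varieties and treatments, so these are likenesses of pattern.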

How the data were processed

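Leaf RNA of 36 libraries (12 groups of 3) was analysed from 1 deposited table. The authors aligned paired reads with HISAT2 2.0.4 to the Genoscope genome and deposited counts per gene from HTSeq 0.9.1; no source used here gives the genome version, the strand setting or the treatment of multi-mapped reads. FPKM as deposited equal count divided by gene length and library total within 1% for all 16 members, are not corrected for composition and served for levels. Columns of the authors' own comparisons (fold changes, p-values) and group means were not used.

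Each comparison was tested on its own libraries with edgeR 4.0.16 in R 4.3.3 (TMM, filterByExpr with minimum count 10 and minimum total 15, quasi-likelihood test), with p-values adjusted over all tested genes. Tables and plots used Python 3.11.15 and matplotlib 3.10.9. The code was tested on simulated data. There were 28 comparisons, 24 between 2 groups and 4 interactions. As alternatives, DESeq2 1.42.0, RLE normalization, the table without a filter, a looser limit of 0.05 on the adjusted p whatever the fold, the other control group, a joint model of the 36 libraries, the replicate number as a block, leaving out 1 library at a time, and scaling by library totals alone (chosen after seeing the data) were run. Totals instead of TMM shifted the median log2 fold change of all genes by -0.53 (HX17_CA against HX17_CB) to 0.35 (HX58_FA against HX17_FA), so fold changes are relative to TMM.

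The members and lists were chosen with earlier results of these data known. All 4 VIN3 loci and every other locus with a mean of 0.5 FPKM or more are described; of each list, the locus with the highest mean FPKM of a symbol is named; and the 5 genes most like the leading VIN3 and VIL2 loci are given, among those averaging at least 1 CPM. Fold changes against 0 counts are bounds against 3 counts over the group. Sequences were not used here.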

Additional observations from a re-analysis of the deposited data

Results flagged for a closer look

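The response of BnaA02g08140D, the VIN3 locus on A02, to chilling after acclimation differed between the varieties in the interaction of variety and CA, with a log2 difference of -7.61 ± 0.96 (HX58 minus HX17, edgeR quasi-likelihood test, adjusted p = 0.00226). The locus had 1.01, 1.03 and 0.958 FPKM in HX58_CA, against 1.66, 2.204 and 1.34 FPKM in HX58_MA, and 3.74, 2.40 and 1.72 FPKM in HX17_CA, against 0, 4 and 0 counts in HX17_MA. All 3 HX58_CA libraries were lower than their controls and all 3 HX17_CA libraries higher. The call was kept in 3 of the 12 fits that left out a library.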

How the results depend on the processing

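Of the 44 calls at single loci over the 28 comparisons, DESeq2 kept 44 and added 32, no filter on low counts kept 44 and added 14, RLE normalization kept 43 and added 1, 1 model of all 36 libraries kept 42 and added 22, and library totals in place of TMM kept 42 and added 2. A limit of 0.05 on the adjusted p, whatever the fold, kept 44 and added 37. The other control group kept 13 of 25 and added 9. Of the calls, 16 stood in every fit that left out a library. None of 1182 alternative values reversed in sign, at loci called in the report or under any alternative. A changed limit alone could not reverse a sign, and a locus near 0 counts in 1 group could hardly do so.

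The number of family members called changed by over 1.5 times as follows, the value with all libraries and settings as in the report standing second. With DESeq2 it was 5 against 2 for HX17_CA vs HX17_MA, 5 against 3 for HX17_FB vs HX17_MB, 2 against 0 for CA vs CB in each variety, 6 against 2 for HX17_FA vs HX17_FB, 4 against 2 for HX17_FA vs HX17_CA and HX58_FA vs HX58_MA, 1 against 0 for HX58_CA vs HX58_MA, 6 against 0 for HX58_CA vs HX17_CA, 2 against 1 for HX58_FB vs HX17_FB, and 2 against 1, 1 against 0 and 1 against 0 for the interactions of CA, CB and FB. With no filter it was 4 against 2 for HX17_CA vs HX17_MA and HX17_FA vs HX17_CA, 6 against 2 for HX17_FA vs HX17_FB, and 1 against 0 for HX58_CA vs HX58_MA, HX58_CA vs HX58_CB, HX58_CA vs HX17_CA and the interaction of CB. With 1 model of all libraries it was 4 against 2 for HX17_CA vs HX17_MA, 7 against 2 for HX17_FA vs HX17_FB, 3 against 0 for HX58_CA vs HX58_MA and HX58_CA vs HX17_CA, 2 against 1 for HX58_FB vs HX17_FB, and 1 against 0 for CA vs CB in each variety and the interaction of CB. Library totals gave 1 against 0 for HX58_CA vs HX58_CB. The other control gave 4 against 2 for HX17_CA and for HX58_FA, 2 against 0 for HX58_CA, 0 against 3 for HX17_CB and 2 against 6 for HX58_CB. The causes were not tested.

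The limit of 0.05 without a fold threshold gave, against the controls, 5 for HX17_CA, 4 for HX17_FA, 8 for HX17_FB, 2 for HX58_CA, 6 for HX58_FA and 10 for HX58_CB. It gave 2 for HX17_CA vs HX17_CB, 9 for HX17_FA vs HX17_FB, 5 for HX17_FA vs HX17_CA, 3 for HX58_CA vs HX58_CB, 10 for HX58_FA vs HX58_FB and 3 for HX58_FA vs HX58_CA, between the varieties 6 in CA, 4 in FB and 4 in MB, and 2, 1 and 1 for the interactions of CA, CB and FB.

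Leaving out 1 library at a time gave counts of 0 to 2 for HX17_CA vs HX17_MA and HX58_MA vs HX17_MA, 0 to 1 for HX17_CB vs HX17_MB, HX17_FA vs HX17_CA, HX58_CA vs HX58_CB, HX58_FA vs HX58_CA, HX58_FB vs HX17_FB and the interactions of CA, CB and FB, 1 to 2 for HX17_FA vs HX17_FB, HX17_FA vs HX17_MA, HX58_CB vs HX17_CB and HX58_FA vs HX17_FA, 1 to 3 for HX17_FB vs HX17_MB and HX58_FA vs HX58_FB, 3 to 7 for HX58_CB vs HX58_MB and 4 to 6 for HX58_FB vs HX58_MB.

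Samples with the same replicate number did not consistently deviate together (r of their deviations from the group means -0.54 to 0.24, and in no comparison over 0.1 for every pair). Whether they share more than a number is not known. With a replicate block 28 of the 44 calls were kept and 3 added: the counts were 0 for HX17_CA vs HX17_MA, 1 for HX17_CB vs HX17_MB, 1 for HX17_FA vs HX17_FB, 4 for HX17_FA vs HX17_CA, 1 for HX58_CA vs HX58_CB, 2 for HX58_FA vs HX58_FB, and 0 for HX58_FA vs HX58_CA, HX58_CB vs HX17_CB, HX58_FB vs HX17_FB, HX58_MA vs HX17_MA and the interaction of CA. Apart from BnaA02g08140D in HX58, the VIN3 loci had 0 to 15 counts per control library, so the sizes of their differences are limited by depth.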
